A study of Homo sapiens with 6 samples.

Results

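The 10 genes described here pump calcium into the endoplasmic reticulum (ER), release it, sense the store or let calcium into the cell. They are the SERCA pumps ATP2A2 and ATP2A3, the inositol trisphosphate (IP3) receptors ITPR1, ITPR2 and ITPR3, the store sensors STIM1 and STIM2, and the plasma membrane channels ORAI1, ORAI2 and ORAI3. Each was taken as the single row of the deposited count table that bears its symbol, 10 of 31582 genes in all, and all 10 were among the 16394 genes that passed the filter on low counts. They were measured by RNA sequencing of polyadenylated RNA from MDA-MB-231, an established human breast cancer line that lacks the oestrogen and progesterone receptors. The CALR knockdown group has 3 libraries of cells carrying an shRNA against CALR (labelled shCALR), and the control group has 3 libraries of cells labelled NTC. Both were grown in DMEM with 10% serum and collected at about 70% confluence. The labels do not say whether the 3 libraries of a group are separate cultures or clones, nor how many shRNA sequences were used, so p-values cover only the spread between these libraries, which may be technical.

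CALR encodes calreticulin, which binds much of the calcium held in the ER lumen and helps glycoproteins to fold. SERCA pumps move calcium from the cytosol into the ER, and IP3 receptors release it again when phospholipase C makes IP3. When the store empties, STIM proteins in the ER membrane sense the loss with a luminal EF hand, move to contacts with the plasma membrane and open ORAI channels there, which is called store-operated entry. The question the comparison addresses is how transcripts for this circuit differ in cells with less CALR.

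CALR was lower in all 3 knockdown libraries, at 47.5%, 6.39% and 10.6% of the control mean in replicates 1, 2 and 3 (log2 fold change −2.22 ± 0.64, SE; edgeR's quasi-likelihood adjusted p = 0.209). Totals were 34639090 to 42425310 counts per library. Markers of basal-type breast lines were abundant, with VIM (vimentin) at 795 to 1317 FPKM (fragments scaled for transcript length and depth), while ESR1, the oestrogen receptor, was at 0.02 to 0.05 FPKM. Since these are bulk samples, fewer cells of a type and less RNA per cell cannot be told apart. The 7 basal-type markers summed to 1778 to 2130 FPKM in knockdown and 1507 to 1585 in control libraries, and 7 luminal markers to 5.63 to 8.50 and 6.85 to 7.52. Most of the basal-type sum was VIM, and its members differed in direction. VIM and PLAU were higher in each knockdown library than in any control. EGFR was lower in each (7.48 to 10.5 against 15.1 to 17.7 FPKM), and the other 4 overlapped. Of the luminal markers, GATA3 was higher in each knockdown library, at 9.60, 11.1 and 9.18 against 6.27, 8.13 and 6.95 CPM. TFF1 did not pass the filter and was lower in each (0 to 0.08 against 0.17 to 0.23 FPKM). The other luminal markers overlapped. Summed markers of fibroblasts and endothelium reached 4.04 FPKM in knockdown and 3.83 in control libraries, those of blood cells were at 0.18 to 0.48 and 0.56 to 0.62, and those of muscle cells at 0.03 to 0.05 and 0.02 to 0.13, with CDH5, VWF, CD3E and RYR1 at 0.02 or below in every library. Of the fibroblast and endothelial markers, LUM made up most of the sum (1.71 to 3.69 FPKM), DCN was lower in each knockdown library than in any control (0 to 0.06 against 0.12 to 0.25 FPKM), and PECAM1 was higher in CPM (0.22 to 0.54 against 0.12 to 0.22 FPKM). The part of these marker differences in the gene values was not tested. Knockdown replicate 2 stood apart from replicates 1 and 3 in how its counts went with GC content. In the fifth of 5 equal bins of tested genes by GC content, the richest, the median log2 difference from the control mean was 0.17 and 0.37 in knockdown replicates 1 and 3 and −0.13 in replicate 2, and in the poorest bin it was −0.45, −0.56 and 0.13.

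Sequence upstream of a RefSeq start of ATP2A2 and of ORAI2 is shown first. These were the members with both groups fully apart and higher in knockdown. The sequences are RefSeq windows of 300 bases around annotated transcription starts on GRCh38.p14, a table that held 11 windows for 7 of the 10 genes. Capitals in the stretches named upstream mark the core of the hypoxia response element, ACGTG or GCGTG on either strand, since HIF-1 is named in the series title. Those in the stretch named site mark all but the last base of the ER stress response element.
ATP2A2 upstream, chr12:110280997-110281115, plus strand: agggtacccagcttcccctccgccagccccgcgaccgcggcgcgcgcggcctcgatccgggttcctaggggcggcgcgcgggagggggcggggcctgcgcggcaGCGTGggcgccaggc
ATP2A2 site, chr12:110281179-110281206, plus strand: ctcggCCAATGAGCGGCGTCCACatgcc
ORAI2 upstream, chr7:102433356-102433529, plus strand: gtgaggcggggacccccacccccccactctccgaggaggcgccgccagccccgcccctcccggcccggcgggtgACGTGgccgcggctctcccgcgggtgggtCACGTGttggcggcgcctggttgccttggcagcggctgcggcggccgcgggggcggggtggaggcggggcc

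The ATP2A2 site lies upstream of the RefSeq start used here, but all its bases are within GENCODE exons of ATP2A2. The other stretches overlap no GENCODE exon of their gene, but lie within its span, downstream of its first GENCODE start. Another RefSeq window of ATP2A2, at 110280366 to 110280665, is not printed and held 2 matches to the hypoxia core. The full ER stress response element, CCAAT and CCACG with 9 bases between them on either strand, was in 0 of the 11 windows and in 0.0769% of all 35116 windows. Without its last base it was in 1 of the 11 windows, that of ATP2A2, and in 0.316% of all windows. The hypoxia core was in 9 of the 11 windows, of 6 of the 7 genes, against 48.4% of all windows. Windows were not matched for GC content, and both forms of this core hold a CG pair. Windows of 1 gene can overlap, and a pair of STIM1 windows hold the same match. In ORAI2 the second run of capitals is the palindrome CACGTG, an E-box that holds the core on both strands and was in 7.26% of windows. The ORAI2 window held 5 matches to the core, and those at 31 and 39 bases past the start are not printed. The TCF/LEF core, CTTTGA or CTTTGT, was in 2 of the 11 windows, of ITPR1 and STIM1, against 26.2%. Such matches describe letters in these windows and not binding.

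ATP2A2 was the most abundant of the 10 genes, and it was higher in each knockdown library than in any control library. It encodes SERCA2, the main SERCA pump outside fast muscle, and lies on chromosome 12 at 110280756 to 110351093 (GRCh38, plus strand, ENSG00000174437.16). Its normalised counts were 437, 477 and 472 CPM (counts scaled to TMM-adjusted library size) with CALR knocked down, in order of replicate number, against control values of 345, 306 and 303 CPM. The knockdown libraries lay close together, and none overlapped the controls. The means were 462 ± 21.5 and 318 ± 23.7 CPM (SD, n = 3). The log2 fold change was 0.54 ± 0.15 (SE; edgeR p = 0.0053 before and 0.200 after adjustment), and the exact two-sided permutation p was 0.1, the smallest that 3 against 3 libraries allow.

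ATP2A3, which encodes SERCA3, a pump best known from blood and epithelial cells, was barely expressed. It lies on chromosome 17 at 3923870 to 3964464 on the minus strand. Knockdown libraries held 15, 10 and 14 reads of it, and control libraries 20, 22 and 19. As CPM these were 0.428, 0.248 and 0.376 against 0.529, 0.604 and 0.435, lower in each knockdown library than in any control, though by very few reads. The log2 fold change was −0.57 ± 0.39 (SE; edgeR adjusted p = 0.485). Per length, ATP2A2 made up 99.9% ± 0.028 of the pumps' summed FPKM after knockdown, against 99.8% ± 0.032 (SD, n = 3) for the controls.

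**Figure D1:**
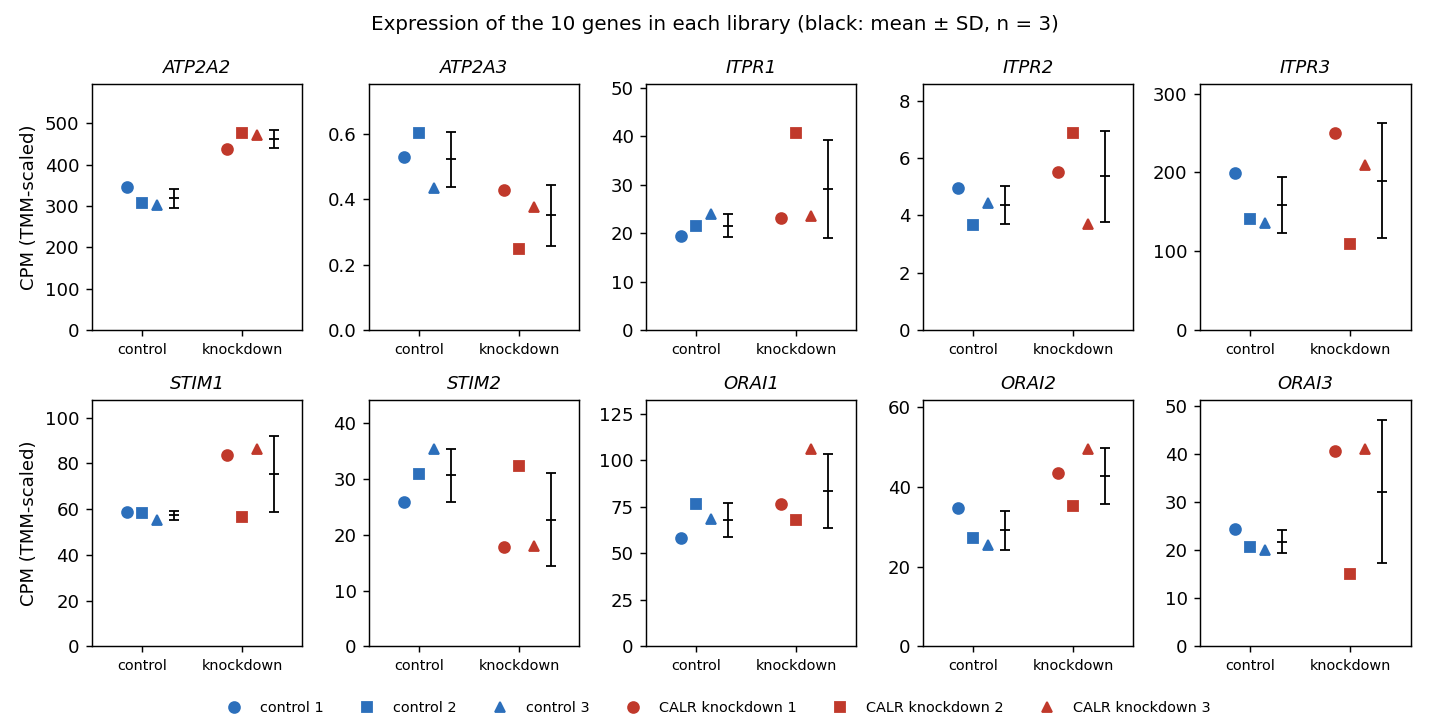
Normalised counts (CPM, vertical axes from 0) of the 10 genes in each control library (blue) and each CALR knockdown library (red), with symbols for replicates 1 to 3 and the group mean ± SD (n = 3) in black. Groups are fully apart for ATP2A2, ATP2A3 and ORAI2, and the square of knockdown replicate 2 sits away from replicates 1 and 3 for ITPR1, ITPR3, STIM1, STIM2 and ORAI3.

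By edgeR's quasi-likelihood test, 0 of the 10 genes passed an adjusted p of 0.05, where 0 of all 16394 genes (0%) did. At an unadjusted p under 0.05, 2 of the 10 were higher in knockdown, ATP2A2 and ORAI2, where 8.17% of all genes tested were higher, and 0 were lower, where 7.36% were lower. Both groups were fully apart for 2 of the 10 higher and for 1 lower, against 11.3% and 11.2% of all genes, so these counts are near the background. A positive log2 fold change was found for 8 of the 10, against 49.9% of all genes. The median of the 10 was 0.35 against 0.00 over all genes, or 0.17 against −0.08 with log2(FPKM + 1) and no filter. Library by library, the median log2 difference of the 10 from the control mean was 0.40, 0.05 and 0.50 in knockdown replicates 1, 2 and 3, and 0.37, 0.11 and 0.18 with the GC trend removed. Replicate 2 was thus within the range of the controls, at −0.06 to 0.08, before that correction. DESeq2 gave 1 of the 10, ATP2A2 (adjusted p = 0.035), where it called 3.23% of all genes, and limma-voom gave 0.

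**Figure D2:**
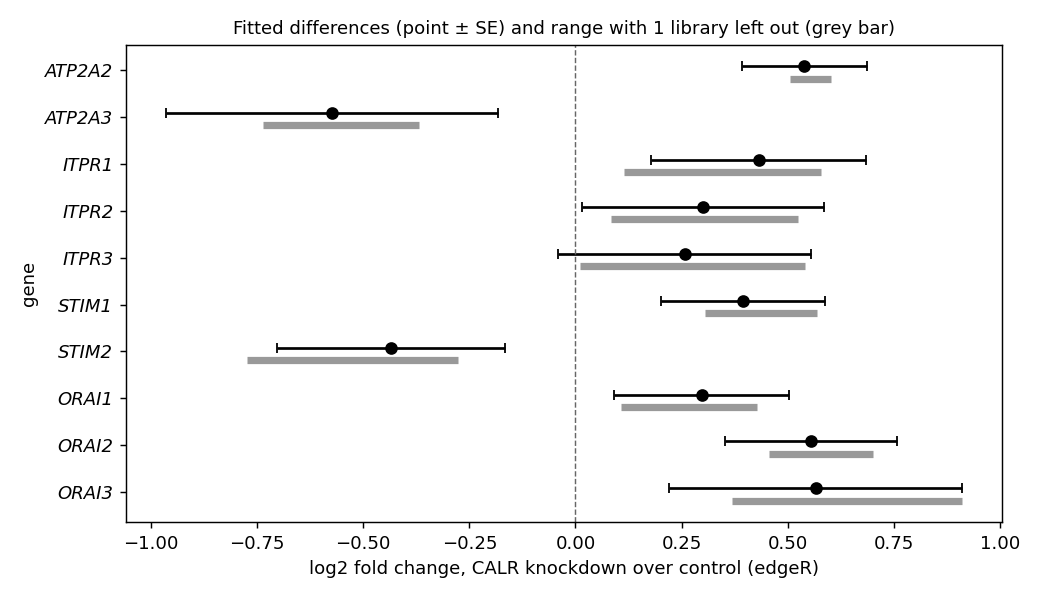
Log2 fold change of each gene, CALR knockdown over control, from edgeR (black point, with bars of 1 SE, 3 against 3 libraries) and the range of the same value when each of the 6 libraries was left out in turn (grey bar). ATP2A2 moves least, between 0.51 and 0.60, while ITPR3 spans 0.01 to 0.54.

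Among the IP3 receptors, which form the release channels, ITPR3 was the most abundant per length in every library. ITPR3 (chromosome 6, 33620365 to 33696574, plus strand) was at 250, 109 and 210 CPM in knockdown replicates 1, 2 and 3, against control values of 199, 140 and 136 CPM. Knockdown replicate 2 was below all controls and replicates 1 and 3 were above them, so the groups overlapped. The log2 fold change was 0.26 ± 0.30 (edgeR adjusted p = 0.687) and was 0.01 without replicate 1, 0.54 without replicate 2, and 0.07 once each library's GC trend was removed. Of its exon bases, 10.4% overlap UQCC2 on the other strand.

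ITPR1, the receptor best known from neurons, went the other way in the same library. ITPR1 (chromosome 3, 4493345 to 4847840, plus strand) was at 23.1, 40.7 and 23.5 CPM in knockdown and at 19.4, 21.4 and 24.0 CPM in control libraries. Only knockdown replicate 2 was above the control range. Its log2 fold change of 0.43 ± 0.25 (edgeR adjusted p = 0.426) was 0.11 without that library. ITPR2 (chromosome 12, 26336515 to 26833198, minus strand) was the scarcest receptor, at 5.51, 6.88 and 3.70 against 4.97, 3.68 and 4.42 CPM, with overlapping groups (0.30 ± 0.29, edgeR adjusted p = 0.617, and 0.08 without knockdown replicate 2).

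The receptor mix therefore differed mainly in knockdown replicate 2. ITPR3 made up 90.2%, 70.7% and 89.0% of the receptors' summed FPKM in knockdown replicates 1, 2 and 3, against control shares of 89.7%, 85.5% and 83.5%. ITPR1 made up 8.04%, 25.5% and 9.61% against 8.39%, 12.6% and 14.2%. The difference in the ITPR3 share was −2.89 percentage points (exact two-sided permutation p = 0.9), and 3.43 points without knockdown replicate 2. For the ITPR1 share it was 2.67 points (exact permutation p = 0.9) and −2.89 without that library.

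The store sensors were split between the knockdown libraries, in opposite directions. STIM1, which responds to marked store depletion, lies on chromosome 11 at 3854527 to 4093210 (plus strand). It was at 83.6, 56.4 and 86.1 CPM in knockdown replicates 1, 2 and 3, against control values of 58.6, 58.2 and 55.2 CPM. Replicates 1 and 3 were well above the narrow control range, and replicate 2 lay within it. STIM2, which senses smaller falls in store calcium and helps to set its resting level, lies on chromosome 4 at 26857678 to 27025381 (plus strand). It was at 17.8, 32.3 and 17.9 CPM in knockdown and at 25.8, 30.8 and 35.3 CPM in control libraries. Here replicates 1 and 3 were below all controls and replicate 2 was again within their range.

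The log2 fold changes were 0.39 ± 0.19 for STIM1 (edgeR unadjusted p = 0.072, adjusted p = 0.361) and −0.43 ± 0.27 for STIM2 (adjusted p = 0.447). STIM1 is GC-rich, at 56.2% of its longest transcript, and STIM2 GC-poor at 44.0%, and in replicates 1 and 3 each differed in the direction of its GC class. With each library's GC trend removed, the log2 differences from the control mean in knockdown replicates 1, 2 and 3 were 0.35, 0.05 and 0.27 for STIM1, and −0.74, 0.02 and −0.64 for STIM2. The STIM1 groups were then apart by a narrow margin, with the highest control at 0.02, while those of STIM2 still overlapped. The fitted values were then 0.23 ± 0.13 for STIM1 and −0.42 ± 0.22 for STIM2. STIM1 made up 84.3%, 66.6% and 84.6% of the sensors' summed FPKM in knockdown and 72.2%, 68.4% and 64.2% in control libraries. The share differed by 10.3 percentage points (exact two-sided permutation p = 0.3), and by 16.2 points without knockdown replicate 2. Their sum hardly differed, at 18.5 ± 0.63 FPKM after knockdown, against 17.9 ± 1.03 (SD, n = 3) for the controls.

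**Figure D3:**
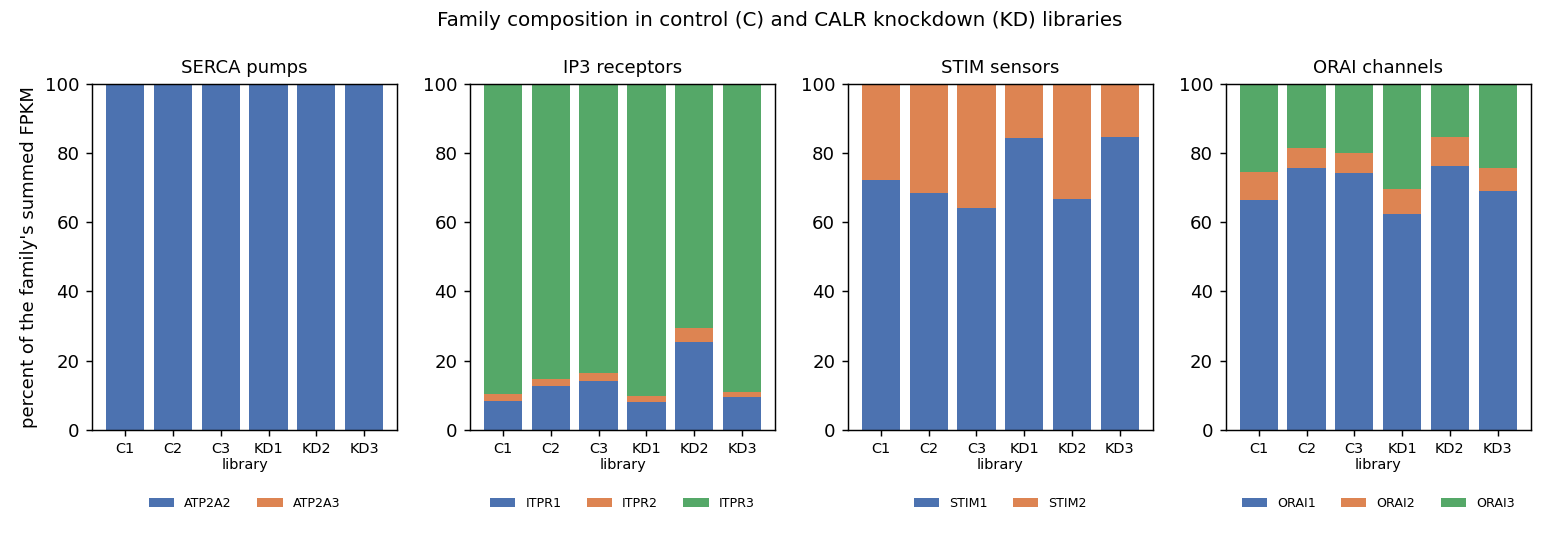
Share of each gene in the summed FPKM of its family (percent, stacked to 100) in control libraries C1 to C3 and CALR knockdown libraries KD1 to KD3. STIM1 takes 84.3% and 84.6% of the STIM bars in KD1 and KD3 but 66.6% in KD2, and the ITPR1 share is 25.5% in KD2 and at most 14.2% elsewhere.

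Of the ORAI channels, ORAI2 was higher in each knockdown library than in any control. ORAI1 (chromosome 12, 121626550 to 121642677, plus strand) forms the classical store-operated channel and was the most abundant per length. It was at 76.4, 68.2 and 106 CPM in knockdown and 58.5, 76.8 and 68.5 CPM in control libraries, and only knockdown replicate 3 lay above the controls. The log2 fold change was 0.30 ± 0.21 (edgeR adjusted p = 0.490), 0.11 without that library and 0.15 with the GC trend removed.

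ORAI2 (chromosome 7, 102433106 to 102456821, plus strand) can form channels together with ORAI1. It was at 43.5, 35.2 and 49.3 CPM in knockdown replicates 1, 2 and 3, against control values of 34.6, 27.2 and 25.3 CPM. The groups were apart, but knockdown replicate 2 and control replicate 1 differed by little. The log2 fold change was 0.56 ± 0.20 (edgeR unadjusted p = 0.023, adjusted p = 0.260; exact permutation p = 0.1). After removal of the GC trend it was 0.39 ± 0.15, and the differences from the control mean were 0.39, 0.37 and 0.45 for knockdown, against 0.25, −0.12 and −0.13 for control libraries. Of its exon bases, 5.26% overlap ALKBH4 on the other strand.

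ORAI3, a channel subunit found in mammals alone, was split between the knockdown libraries in the way ITPR3 was. It lies on chromosome 16 at 30949066 to 30956461 (plus strand). ORAI3 was at 40.6, 15.1 and 41.0 CPM in knockdown replicates 1, 2 and 3, against control values of 24.5, 20.7 and 20.1 CPM. Replicates 1 and 3 were above all controls and replicate 2 was below them. The log2 fold change was 0.57 ± 0.35 (edgeR adjusted p = 0.444), and it was 0.91 without replicate 2 and 0.37 without replicate 1 or replicate 3. With the GC trend removed it was 0.36 ± 0.27. Of its exon bases, 52.9% also belong to the transcript AC135048.13 on the same strand, which had 34.2, 11.3 and 29.6 CPM in knockdown and 17.0, 12.9 and 12.3 CPM in control libraries. Reads in the shared bases cannot be assigned with certainty, so the ORAI3 level is uncertain.

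The mix of ORAI channels did not separate the groups. ORAI1 made up 62.3% to 76.3% of the summed FPKM in knockdown and 66.3% to 75.7% in control libraries, ORAI2 6.71% to 8.24% and 5.62% to 8.20%, and ORAI3 15.5% to 30.3% and 18.7% to 25.5%. Exact two-sided permutation p-values were 0.7, 0.3 and 0.7. Over the 8 shares tested in the 4 families the smallest exact permutation p was 0.1, for ATP2A2. The smallest adjusted value was 0.8 (Benjamini-Hochberg). No share could have passed 0.05 in this test, since 3 against 3 libraries allow no exact p below 0.1.

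**Figure D4:**
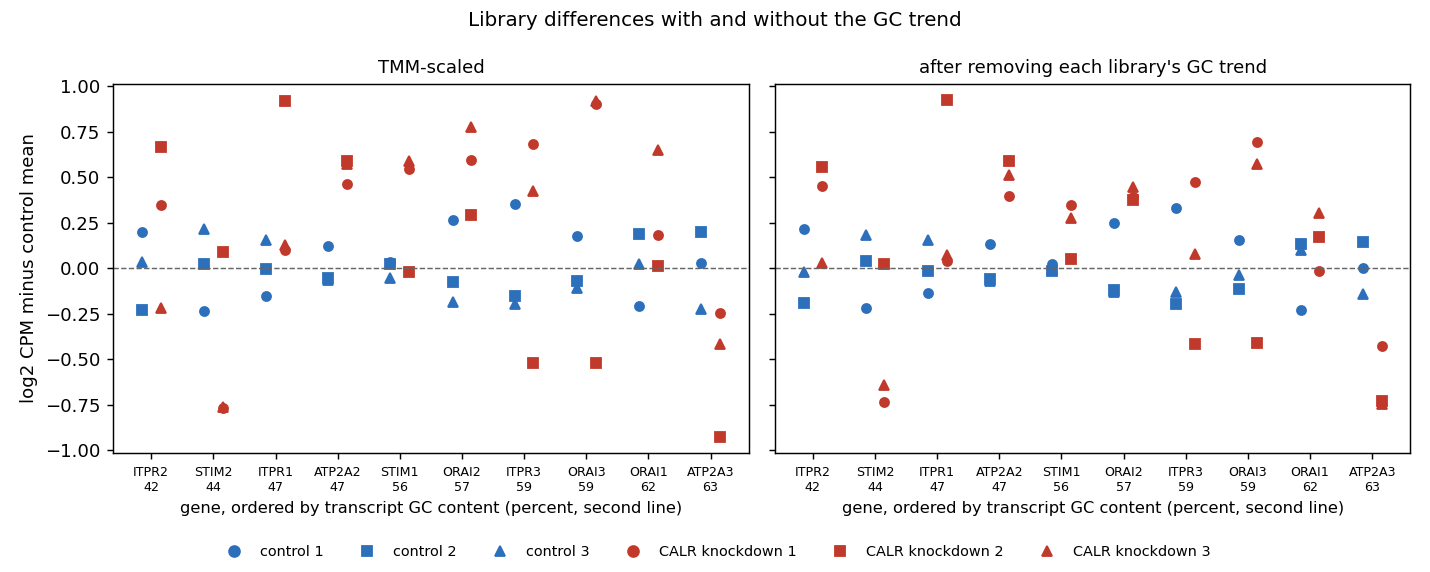
Log2 CPM minus the control mean for each gene and library, with genes ordered by the GC content of the longest transcript (percent, under each name), on TMM-scaled values (left) and after removing each library's trend with GC content (right). On the right, STIM1 in knockdown replicates 1 and 3 drops to 0.35 and 0.27, STIM2 remains at −0.74 and −0.64, and the ATP2A2 and ORAI2 groups are still apart.

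Without knockdown replicate 2, edgeR's quasi-likelihood test passed 5 of the 10 genes, and 15.5% of all 16783 genes tested then. Higher were ORAI3 (log2 fold change 0.91, adjusted p = 0.016), ORAI2 (0.68, 0.039), STIM1 (0.57, 0.027) and ATP2A2 (0.52, 0.035), where 7.76% of all genes were higher. Lower was STIM2 (−0.77, adjusted p = 0.029), where 7.75% were lower. ITPR3 (0.54) and ORAI1 (0.43) did not pass, at adjusted p-values of 0.086 and 0.138. Replicate 2 is also the library with the least CALR, and the part of its GC trend in these calls was not tested. With any other single library left out, 0 of the 10 passed.

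Levels per length put the 10 genes in order. Mean FPKM over the 6 libraries was 64.0 for ATP2A2, 31.1 for ORAI1, 16.3 for ITPR3, 13.4 for STIM1, 10.0 for ORAI3, 4.83 for STIM2, 3.07 for ORAI2, 2.33 for ITPR1, 0.40 for ITPR2 and 0.083 for ATP2A3. The ranges over libraries of ATP2A2, ORAI1, ITPR2 and ATP2A3 overlapped those of no neighbour in this order. Each neighbouring pair from ITPR3 down to ITPR1 overlapped. ATP2A2 was thus 3.93 times as abundant per length as ITPR3, and summed SERCA FPKM was 73.3 ± 7.30 after knockdown, against 54.9 ± 2.60 (SD, n = 3) for the controls. For the IP3 receptors the sum was 15.1 to 24.9 FPKM after knockdown and 16.4 to 21.3 in the controls. Summed ORAI FPKM was 47.8 ± 9.30 and 40.6 ± 3.59.

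The wider circuit was read from 71 listed genes, of which 57 were tested. By edgeR, 0 of the 57 passed the adjusted threshold. Before adjustment, 4 were higher and 3 lower at p under 0.05, close to the 8.17% and 7.36% of all genes. The median log2 fold change of the 57 was 0.15 against −0.0007 over all genes. With library size alone it was 0.01 against −0.13. Among genes that make IP3, phospholipase C beta 4 (PLCB4) was lower in all 3 libraries, at 0.371, 0.720 and 0.939 CPM against 3.15, 2.11 and 2.61 (−1.95 ± 0.39, edgeR adjusted p = 0.149, DESeq2 adjusted p = 0.0014). It was thus scarce in both groups. PLCG1, which couples receptor tyrosine kinases to IP3, was at 96.5 ± 8.57 against 75.1 ± 2.33 CPM (0.36 ± 0.15), and 0.22 after the GC correction. Its homologue PLCG2 was at 17.7, 10.2 and 7.81 against 7.33, 7.19 and 7.27 CPM (0.71 ± 0.30), and 0.31 without knockdown replicate 1. PLCD4 was at −1.36 ± 0.57 and −0.60 without control replicate 1.

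AHCYL1, which encodes the IP3 receptor inhibitor IRBIT, was higher in all 3 knockdown libraries, at 230, 352 and 207 against 176, 163 and 169 CPM (log2 fold change 0.64 ± 0.21), and 0.37 without replicate 2. Of the other release channels, RYR2 was near the floor, at 0.241 ± 0.075 against 0.708 ± 0.330 CPM (−1.54 ± 0.47). On the mitochondrial side, VDAC1, the outer membrane channel, was at 508 ± 68.4 against 372 ± 20.9 CPM (0.45 ± 0.16). These 7 genes had edgeR adjusted p-values of 0.149 to 0.312. Calcium pumps and exchangers of other membranes had 4 tested members, and store-operated entry regulators 11, with 0 at an unadjusted p under 0.05 in either list and medians of 0.13 and 0.17.

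**Figure D5:**
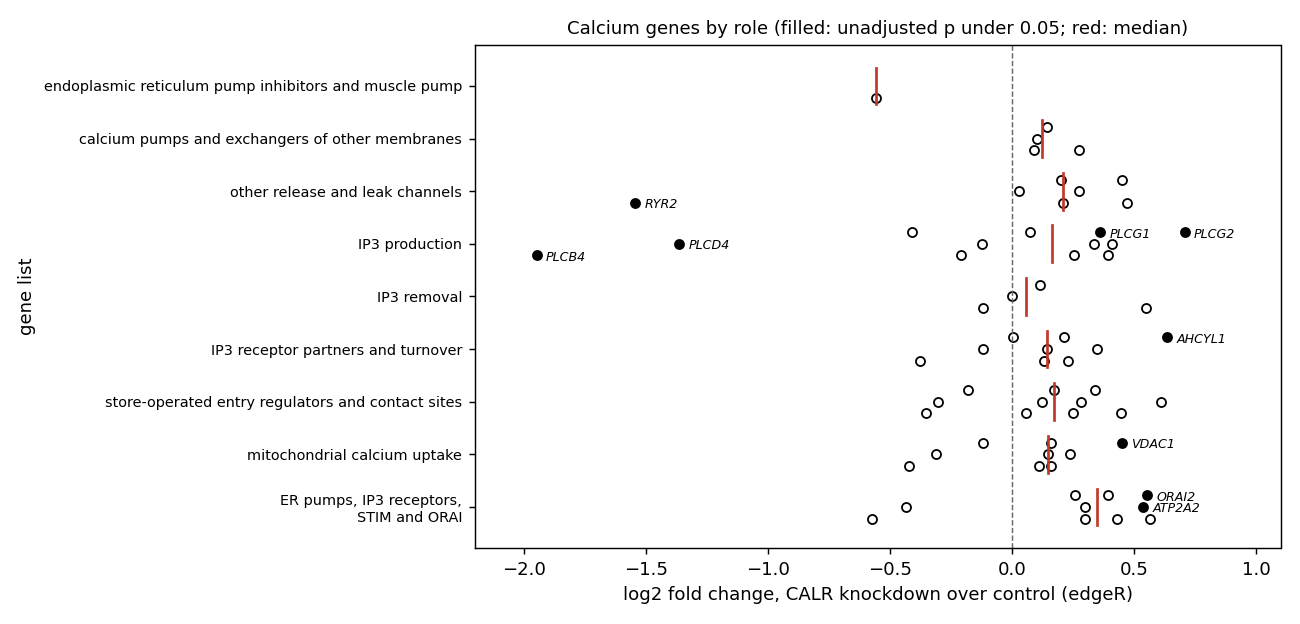
Log2 fold change (CALR knockdown over control, edgeR) of 57 tested calcium genes by role and of the 10 pumps, receptors, sensors and channels (bottom row), with each list's median in red and genes at an unadjusted p under 0.05 filled and named. The lowest points are the scarce genes PLCB4 (−1.95), RYR2 (−1.54) and PLCD4 (−1.36).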

How the data were processed

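The deposited count table holds whole reads per gene, and the deposited FPKM table holds values rounded to 2 decimals, in 1 column per library for 3 CALR knockdown and 3 control libraries. TopHat2, FastQC 0.9.5 and GRCh38 are named in the submitters' processing notes, and the kit kept strand, per the labels. How reads were assigned to genes, and whether strand was used, is not given in the sources used here. Replicate pairs differed by more than sampling noise (chi-square per gene 11.8 to 199). Genes were filtered with filterByExpr, scaled by TMM and tested with edgeR 4.0.16 (quasi-likelihood, R 4.3.3), with Benjamini-Hochberg adjustment over 16394 genes. SE was computed as |log2 fold change| over the root of edgeR's F. Library differences use log2 CPM with a prior count of 2. GC content is that of the longest GENCODE 29 transcript, with its trend fitted by a spline with 5 degrees of freedom. Of 31582 gene identifiers, 30871 matched GENCODE 29 without the version, and coordinates are from it. Genes named were all 10 members, CALR and up to 8 listed pathway genes with the smallest unadjusted p under 0.05. One listed pathway gene is not reported here and is left out of its list's counts. Members and lists were chosen with earlier results of these data known. The edgeR code was tested on simulated data. Alternatives used DESeq2 1.42.0, limma 3.58.1, other filters and scalings, log2(FPKM + 1) and log2(FPKM + 0.1), GC and length corrections, a replicate block and leaving out each library.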

Additional observations from a re-analysis of the deposited data

How the results depend on the processing

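Under 19 alternatives, 0 of the 10 genes reversed direction where they could be fitted, including library size alone, which lowered the median of all genes to −0.13. The count of all genes past the adjusted threshold was 0, and became 530 with DESeq2, 988 without the low-count filter, 2 with GC and length trends removed, 3 with log2(FPKM + 1) without a filter, and 0 to 2604 with 1 library left out (2604 without knockdown replicate 2, 138 without replicate 3). The count among the 10 genes became 1 with DESeq2 and was 0 to 5 with 1 library left out. The count among pathway genes became 1 with DESeq2, 1 without the filter and 0 to 6 with 1 library left out. CALR was at −2.19 without the filter, with an adjusted p of 1.4e-19 from edgeR, and at −3.55 to −1.78 with 1 library left out. With 1 library left out, the difference in family share ranged from −2.89 to 5.84 percentage points for ITPR1, −0.54 to 0.70 for ITPR2, −6.35 to 3.43 for ITPR3, −6.53 to 0.46 for ORAI1 and −1.42 to 5.99 for ORAI3, and the cause was not tested. The labels do not state that same-numbered libraries are pairs, and the main test did not pair them. Deviations of same-numbered libraries from their group means correlated at 0.20, −0.12 and −0.22 for numbers 1 to 3. Of the 3 knockdown libraries, 2 correlated best with a control of another number. Such deviations cancel out within a group of 3, so these correlations cannot show whether libraries were paired. With the replicate number as a block, edgeR called 0 genes, and ATP2A2 was at 0.54 (adjusted p = 0.300). ATP2A3, with 10 to 22 counts per library, is limited by depth.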

Other observations

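The balance of pumps to release channels, as summed SERCA FPKM over summed IP3 receptor FPKM, was 2.75, 5.40 and 3.50 after knockdown, in order of replicate number, against control values of 2.71, 3.25 and 3.24. This ratio was chosen after the values were seen. The groups overlapped, with knockdown replicate 1 within the control range and replicate 2 highest, the library in which ITPR3 was below all controls. STIM1 over STIM2 was 5.36, 1.998 and 5.50 in knockdown and 2.60, 2.16 and 1.79 in control libraries, so here it was replicate 2 that lay within the control range.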
